A study of Mus musculus with 10 samples.

Results

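A set of 30 genes of cholesterol and fatty acid synthesis was followed in the dissected intermediate lobe (IL) of the mouse pituitary. They were chosen by name, with earlier results of these data known. They were 18 enzymes of cholesterol synthesis (7 of the mevalonate pathway, 3 that form squalene and lanosterol, and 8 that turn lanosterol into cholesterol), 5 regulators of the SREBP factors, 6 enzymes of fatty acid synthesis and 1 sterol carrier. All 30 were found among the 29527 genes of the deposited table, and all 30 were among the 17268 genes whose mean level was high enough to test. Bulk RNA was sequenced from 10 mice aged 2 to 3 months, with 4 wild-type (WT), 3 p27-/- and 3 p27-/-;Sox2+/- animals of both sexes. The p27-/- mice lacked both copies of Cdkn1b, which encodes the cell cycle inhibitor P27 (the Cdkn1b tm1Mf allele), and the p27-/-;Sox2+/- mice, called compound mutants here, lacked both copies of Cdkn1b and 1 copy of Sox2, a transcription factor of stem cells and melanotrophs. The alleles were present in every cell from the germ line, and the mice were littermates or animals of comparable mixed background. The lobe was cut out by hand, so that it could carry some of the adjoining lobes.

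The deposited values were log2 values, normalized by the authors, without read counts or the depth of each sample. A difference of 1 therefore stands for a 2-fold change. Low values look shrunken, so differences between mice may be pulled towards 0 in genes with few reads. Levels were compared between mice for the same gene and never between genes, because the values are not corrected for gene length. Cdkn1b was lower in every mutant (7.73 to 8.27) than in every WT mouse (8.39 to 8.85), though its RNA was still detected in the mutants. Sox2 was lower in every compound mutant (6.88 to 7.07) than in every other mouse (7.08 to 7.75), by a narrow gap. It did not reach an adjusted p under 0.05 (limma) in compound mutants against WT or against p27-/- mice. Every p27-/- mouse lay below every WT mouse in 10.3% of all tested genes. The defining melanotroph genes were detected in every mouse, with Pomc between 18.0 and 19.0 and Pax7 between 11.45 and 11.97. The adjoining lobes were not equally present. Prl, the prolactin gene of the anterior lobe, ranged from 11.4 to 17.54 among WT mice, with the highest value in WT replicate 2, and Scn7a, a marker of the posterior lobe, ranged from 9.41 to 11.96 among WT mice, with the lowest value in that same replicate.

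Cells make cholesterol from acetyl-CoA. HMG-CoA formed by Hmgcs1 leads to mevalonate, which is built up into isoprenoid units, joined into squalene and closed into lanosterol, and a further chain of enzymes trims lanosterol to cholesterol. Fatty acids are made from the same acetyl-CoA, by way of Acly, Acaca and Fasn. Both branches are switched on by the SREBP factors, encoded by Srebf1 and Srebf2. When membranes are short of sterol, the escort protein SCAP carries the factors from the endoplasmic reticulum to the Golgi, where they are cut and released to the nucleus. When sterol is plentiful, the INSIG proteins hold SCAP back. SREBP-2 acts mainly on cholesterol genes and SREBP-1c mainly on fatty acid genes. Melanotrophs, the endocrine cells of the IL, need membrane for a dense store of secretory granules.

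The factors reach these genes through the promoter, usually through a sterol regulatory element beside binding sites of NF-Y and Sp1. RefSeq promoter sequences (build GRCm38.p6) were found for 24 of the 30 genes, with 32 entries because some genes have several starts. None was found for Fdps, Fdft1, Sqle, Scd1, Scd2 and Stard4. For all tested genes there were 12907 promoters of 10024 genes, as no entry was found for the others. The 250 bases before the start were searched on both strands for TCACNCCA, the core of the sterol regulatory element, for CCAAT, the NF-Y box, and for GGGCGG, the Sp1 box. TCACNCCA was present in 9.38% of the 32 promoters, those of Hmgcs1, Msmo1 and Srebf2, compared with 3.28% of the promoters of all tested genes. CCAAT was present in 62.5%, compared with 35.1%, and GGGCGG in 71.9%, compared with 55.5%. The 32 promoters had a median G+C content of 62.6%, and those of all tested genes 59.6%. These shares describe letters and were not tested. The promoters of 6 genes are shown, 5′ to 3′ on the strand of the gene, each ending at the base before the start, with the 3 motifs in capitals (ATTGG and CCGCCC are CCAAT and GGGCGG on the opposite strand) and no base shared by matches to different motifs. The first 3 are those with TCACNCCA, Idi1 and Insig1 belong to genes that rose in p27-/- mice without it, and Elovl6 rose although its window held none of the 3 motifs.
Hmgcs1, chr13:119690101-119690350, plus strand: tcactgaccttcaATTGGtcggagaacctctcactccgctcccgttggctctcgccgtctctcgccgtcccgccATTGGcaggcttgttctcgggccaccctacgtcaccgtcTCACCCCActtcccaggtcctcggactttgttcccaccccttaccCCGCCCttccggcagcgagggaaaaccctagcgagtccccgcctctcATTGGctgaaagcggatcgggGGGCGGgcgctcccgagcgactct
Msmo1, chr8:64733579-64733828, minus strand: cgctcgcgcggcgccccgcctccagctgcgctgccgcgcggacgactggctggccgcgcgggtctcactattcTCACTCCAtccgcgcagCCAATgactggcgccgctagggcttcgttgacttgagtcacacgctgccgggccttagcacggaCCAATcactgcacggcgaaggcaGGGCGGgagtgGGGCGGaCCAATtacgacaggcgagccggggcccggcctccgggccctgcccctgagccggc
Srebf2, chr15:82147019-82147268, plus strand: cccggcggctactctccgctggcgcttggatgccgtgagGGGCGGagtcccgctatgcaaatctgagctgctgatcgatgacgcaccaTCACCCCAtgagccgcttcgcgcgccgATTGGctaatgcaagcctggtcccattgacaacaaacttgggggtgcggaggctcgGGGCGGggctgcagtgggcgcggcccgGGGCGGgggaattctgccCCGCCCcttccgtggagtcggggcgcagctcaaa
Idi1, chr13:8885356-8885605, plus strand: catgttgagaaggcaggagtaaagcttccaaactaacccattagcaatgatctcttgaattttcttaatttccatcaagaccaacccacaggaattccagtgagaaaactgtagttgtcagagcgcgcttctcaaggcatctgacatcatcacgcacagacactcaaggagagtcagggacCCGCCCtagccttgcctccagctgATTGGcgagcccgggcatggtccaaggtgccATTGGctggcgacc
Insig1, chr5:28071162-28071411, plus strand: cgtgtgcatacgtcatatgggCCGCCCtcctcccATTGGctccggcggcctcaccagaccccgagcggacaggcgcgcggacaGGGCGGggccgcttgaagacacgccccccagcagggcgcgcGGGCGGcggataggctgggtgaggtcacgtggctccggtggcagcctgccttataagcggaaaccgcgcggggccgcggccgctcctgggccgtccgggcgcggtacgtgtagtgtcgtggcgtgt
Elovl6, chr3:129532136-129532385, plus strand: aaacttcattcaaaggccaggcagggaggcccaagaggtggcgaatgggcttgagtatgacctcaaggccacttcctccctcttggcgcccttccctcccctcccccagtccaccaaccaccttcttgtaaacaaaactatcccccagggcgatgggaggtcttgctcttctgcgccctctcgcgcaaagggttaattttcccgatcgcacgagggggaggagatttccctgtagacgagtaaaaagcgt
The TCACNCCA match began 137 bases before the start in Hmgcs1, 177 in Msmo1 and 162 in Srebf2. A window without a match says nothing on whether the factor binds elsewhere.

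In the p27-/- IL, 11 of the 30 genes rose compared with WT and none fell (limma, Benjamini-Hochberg adjusted p under 0.05 over all tested genes). Of all 17268 tested genes, 3.16% rose and 4.62% fell in the same comparison, 7.78% in all. The 30 genes were chosen with earlier results of these data known, so this contrast is a description and was not tested. Of the 11, 8 were enzymes of cholesterol synthesis, drawn from all 3 of its stages, and the other 3 were the sterol sensor gene Insig1, the fatty acid elongase Elovl6 and the sterol carrier Stard4. Changes were of moderate size, from 0.34 for Fdps to 0.84 for Stard4 on the log2 scale, a 1.26-fold and a 1.79-fold difference. At an unadjusted p under 0.05, 16 were higher and 1, Srebf1, lower, beside 11.3% and 12.8% of all tested genes. The median over the 30 genes was 0.24, beside 0.009 over all tested genes. Of the 30, 26 had a positive difference, including all 18 cholesterol synthesis enzymes, whose median was 0.29. In 13 of the 30 every p27-/- mouse lay above every WT mouse, which 10.2% of all tested genes did, and in 1, Scap, every p27-/- mouse lay below, which 10.3% of all tested genes did. Of the 11 calls, 6, namely Hmgcs1, Idi1, Sqle, Msmo1, Insig1 and Stard4, held in all 10 fits with a mouse left out and in all 11 other settings. The number of calls fell to 7 without WT replicate 3, without WT replicate 4 or without p27-/- replicate 3. In those fits 312, 262 and 145 of all 17268 tested genes were called higher, beside 545 with all mice. It also fell to 7 with no filter on low values, where 1.08% of all genes were called higher. With array weights, which give less weight to mice that stand apart, the number of calls was 13, with Lss and Srebf2 added and none lost, beside 4.25% of all tested genes called higher under that setting.

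**Figure D1:**
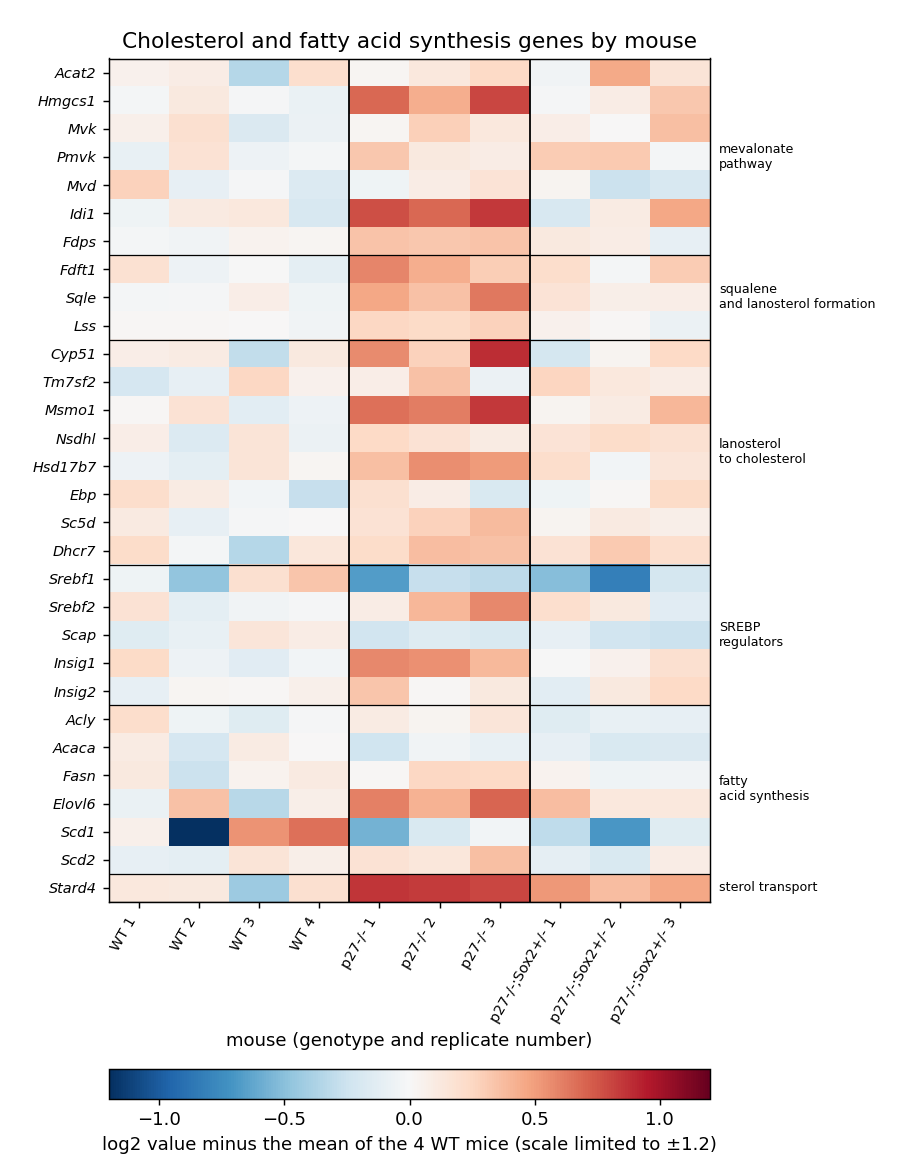
Log2 value of each of the 30 genes (rows, grouped by role) in each of the 10 mice (columns), minus the mean of the 4 WT mice. The 3 p27-/- columns are red for most of the cholesterol synthesis enzymes, for Insig1, Elovl6 and Stard4, and blue for Srebf1 and Scap. On average the 3 compound mutant columns lie nearer to WT for the genes that rose in p27-/- mice, and are about as blue for Srebf1 and Scap.

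The mean difference from WT over the 18 cholesterol synthesis enzymes was similar among the 3 p27-/- mice, at 0.33, 0.32 and 0.37, and among the 4 WT mice it lay between -0.03 and 0.05. The compound mutants had 0.07, 0.10 and 0.16, above every WT mouse and below every p27-/- mouse. The 6 fatty acid synthesis genes had a mean difference of 0.01, 0.10 and 0.22 in p27-/- mice, within the WT range of -0.26 to 0.15 in all but 1 of them, p27-/- replicate 3. WT replicate 2 was the lowest WT mouse for this group and for the SREBP regulators.

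In the mevalonate pathway, 3 of 7 enzymes rose. Hmgcs1, the synthase that makes HMG-CoA, the precursor of mevalonate, had log2 values of 8.41, 8.55, 8.42 and 8.35 in WT mice, 9.12, 8.87 and 9.23 in p27-/- mice and 8.42, 8.52 and 8.76 in compound mutants. Every p27-/- mouse was higher than all 7 others, and compound mutants and WT overlapped. Its log2 difference between p27-/- and WT was 0.64 (standard error 0.11, adjusted p = 0.00448), a 1.56-fold rise. Idi1, the isomerase that supplies an activated unit of isoprenoids, had values of 7.48, 7.64, 7.65 and 7.34 in WT, 8.30, 8.22 and 8.38 in p27-/- and 7.34, 7.63 and 7.99 in compound mutant mice. The p27-/- mice again formed the highest group, and the compound mutants spread from the lowest WT value to above the highest. Its difference was 0.77 (standard error 0.14, adjusted p = 0.00616). Fdps, which joins these units into farnesyl diphosphate, had values of 7.42, 7.40, 7.49 and 7.47 in WT, 7.79, 7.77 and 7.79 in p27-/- and 7.56, 7.53 and 7.35 in compound mutant mice. The 3 p27-/- mice were nearly equal and above all the others, with a difference of 0.34 (standard error 0.09, adjusted p = 0.0455). This call was the least firm of the 11, because it held in 1 of 10 fits with a mouse left out, that without compound mutant replicate 3 (adjusted p = 0.0457), and its adjusted p rose to between 0.0555 and 0.146 without any of the others. It was also lost with posterior lobe (adjusted p = 0.146) or anterior lobe hormone markers (0.0898) as a covariate. A fit of just the 2 groups compared lost it too, and it held in 6 of the 11 other settings.

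The other 4 mevalonate pathway genes did not pass the threshold, and their groups overlapped. The mevalonate kinase gene Mvk had a difference of 0.15, the phosphomevalonate kinase gene Pmvk 0.18 and the diphosphomevalonate decarboxylase gene Mvd 0.07 between p27-/- and WT. Acat2, a cytosolic thiolase that makes the acetoacetyl-CoA used by Hmgcs1, had a difference of 0.13 (standard error 0.15). Acat2 has a close copy in the mouse genome, Acat3, between which the counting could have divided reads.

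Of the 3 genes that form squalene and lanosterol, 2 rose and the other was higher in every p27-/- than in every WT mouse. Fdft1, the squalene synthase that takes farnesyl units into the sterol branch, had values of 9.72, 9.47, 9.53 and 9.42 in WT, 10.12, 9.97 and 9.83 in p27-/- and 9.75, 9.51 and 9.84 in compound mutant mice. Its difference from WT in p27-/- mice was 0.44 (standard error 0.11, adjusted p = 0.026). The call was lost without WT replicate 3 (adjusted p = 0.0505), WT replicate 4 (0.0697), p27-/- replicate 1 (0.115) or p27-/- replicate 2 (0.0797). Sqle, the squalene epoxidase, a rate-limiting step of the sterol branch, had values of 9.14, 9.15, 9.24 and 9.11 in WT, 9.62, 9.51 and 9.79 in p27-/- and 9.32, 9.23 and 9.24 in compound mutant mice. The WT and compound mutant mice were closely grouped, the p27-/- mice stood above them, and the difference was 0.48 (standard error 0.09, adjusted p = 0.00611). Lss, which closes the ring to lanosterol, had values of 8.61, 8.61, 8.60 and 8.55 in WT, 8.84, 8.82 and 8.87 in p27-/- and 8.64, 8.61 and 8.52 in compound mutant mice. No p27-/- mouse overlapped with any other mouse, but the difference of 0.25 (standard error 0.08, adjusted p = 0.0677) did not pass the threshold over all genes, except with array weights (0.0458).

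Of the 8 genes that turn lanosterol into cholesterol, 3 rose. Cyp51, the lanosterol demethylase that opens this stretch, had values of 8.61, 8.63, 8.23 and 8.64 in WT, 9.09, 8.80 and 9.41 in p27-/- and 8.32, 8.56 and 8.77 in compound mutant mice. Its p27-/- values were the most spread of the 11 genes that rose, and the difference of 0.57 (standard error 0.15, adjusted p = 0.0363) was lost without WT replicate 3 (adjusted p = 0.0837), WT replicate 4 (0.059), p27-/- replicate 1 (0.103), p27-/- replicate 3 (0.174) or compound mutant replicate 2 (0.0542), and with posterior lobe markers as a covariate (0.0657). A fit of just the 2 groups compared lost it too, and it held in 7 of the 11 other settings. Msmo1, which oxidizes methyl groups of the sterol ring, had values of 7.93, 8.09, 7.79 and 7.85 in WT, 8.58, 8.53 and 8.76 in p27-/- and 7.95, 8.01 and 8.31 in compound mutant mice. All p27-/- mice were above all others, and the difference of 0.71 (standard error 0.11, adjusted p = 0.00327) was the largest among the 8. Hsd17b7, a reductase that acts on the intermediate made by Msmo1 and Nsdhl, had values of 7.05, 7.0, 7.27 and 7.14 in WT, 7.48, 7.67 and 7.63 in p27-/- and 7.33, 7.08 and 7.26 in compound mutant mice. Its difference was 0.48 (standard error 0.11, adjusted p = 0.0211), lost without p27-/- replicate 2 (adjusted p = 0.0898) or replicate 3 (0.0934).

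The other 5 genes of this stretch did not pass the threshold. Sc5d, a desaturase of the last steps, had values of 7.66, 7.45, 7.54 and 7.55 in WT and 7.72, 7.83 and 7.93 in p27-/- mice, which did not overlap, with a difference of 0.28 (standard error 0.10, adjusted p = 0.102), and the compound mutants had 7.58, 7.66 and 7.62. Dhcr7, whose product takes the final step to cholesterol, had a difference of 0.31 with overlapping mice, of which WT replicate 3 was the lowest at 7.11. Nsdhl, which encodes the dehydrogenase between Msmo1 and Hsd17b7, showed no such step in p27-/- mice (difference 0.17, standard error 0.10, overlapping groups). The differences of Tm7sf2 and Ebp, a sterol reductase and a sterol isomerase, were 0.12 and 0.03.

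**Figure D2:**
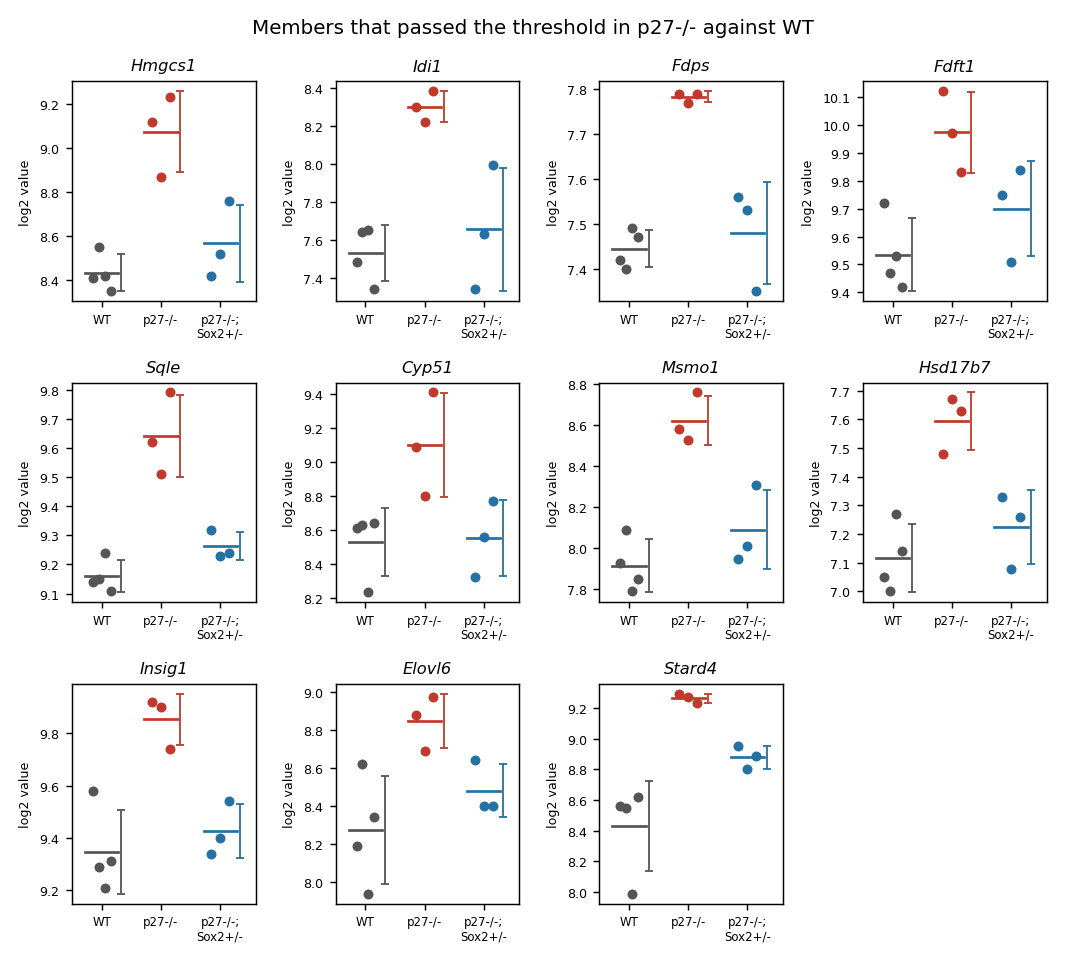
Log2 values of the 11 genes that rose in p27-/- compared with WT, 1 panel per gene and 1 point per mouse (4 WT, 3 p27-/-, 3 p27-/-;Sox2+/-), with a line at the mean and a bar of 1 SD to each side. Vertical axes differ between panels and do not start at 0. The p27-/- points lie above every WT point in each panel, and the compound mutants overlap with WT in all panels except that of Stard4.

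Among the regulators, only Insig1 passed the threshold. Insig1, itself a target of the SREBP factors and a brake on their release, had values of 9.58, 9.29, 9.21 and 9.31 in WT, 9.92, 9.90 and 9.74 in p27-/- and 9.34, 9.40 and 9.54 in compound mutant mice. The p27-/- mice were above all others, with a difference of 0.51 (standard error 0.10, adjusted p = 0.00966). Insig2, the related brake that does not depend on SREBP in the same way, had a difference of 0.16 with overlapping groups. Srebf2, which encodes the factor acting mainly on cholesterol genes, had values of 9.22, 8.93, 9.01 and 9.04 in WT, 9.14, 9.45 and 9.63 in p27-/- and 9.25, 9.17 and 8.91 in compound mutant mice. The 2 highest values belonged to p27-/- mice, but p27-/- replicate 1 lay within the WT range, and the difference of 0.35 (standard error 0.12, adjusted p = 0.096) did not pass, except with array weights or without p27-/- replicate 1. Scap had values of 8.84, 8.90, 9.13 and 9.08 in WT, 8.76, 8.83 and 8.80 in p27-/- and 8.89, 8.76 and 8.73 in compound mutant mice. Every p27-/- mouse was below every WT mouse by a small margin, with a difference of -0.19 (standard error 0.09, adjusted p = 0.24).

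Srebf1 had a difference of the opposite sign to the cholesterol genes, which did not pass the threshold with all mice weighted equally. Its values were 8.76, 8.33, 9.0 and 9.14 in WT, 8.14, 8.53 and 8.49 in p27-/- and 8.30, 7.99 and 8.60 in compound mutant mice. WT replicate 2 lay among the mutants, and the other 3 WT mice lay above all 6 of them. Compared with WT, p27-/- mice differed by -0.42 (standard error 0.18, adjusted p = 0.176) and compound mutants by -0.51 (standard error 0.18, adjusted p = 0.154), and without WT replicate 2 these differences were -0.58 (adjusted p = 0.0391) and -0.67 (adjusted p = 0.0357). Leaving out this mouse was 1 of 10 such fits, and the 9 others did not give a call for Srebf1. WT replicate 2 had the highest anterior lobe hormone markers (summed log2 level 17.77, other WT mice 13.89 to 14.36) and the lowest posterior lobe markers (10.53, other WT mice 11.89 to 12.52), and the part of these in the result was not tested beyond the fits with those markers as a covariate, in neither of which Srebf1 passed.

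Of the 6 fatty acid synthesis genes, 1 rose. Elovl6, which lengthens palmitic acid, had values of 8.19, 8.62, 7.94 and 8.34 in WT, 8.88, 8.69 and 8.97 in p27-/- and 8.64, 8.40 and 8.40 in compound mutant mice. The p27-/- mice were above all others, although the WT mice were spread widely, and the difference was 0.57 (standard error 0.14, adjusted p = 0.027). The call was lost without WT replicate 3 (adjusted p = 0.0547), WT replicate 4 (0.0515), p27-/- replicate 1 (0.091) or p27-/- replicate 3 (0.12), and with posterior lobe markers as a covariate (0.103). The genes of the core steps overlapped between p27-/- and WT mice, with differences of 0.10 for Acly, which releases acetyl-CoA from citrate, of -0.13 for Acaca, the rate-limiting carboxylase, and of 0.17 for Fasn, the synthase itself, each with a standard error of 0.09 or 0.10. Scd2, a desaturase, had a difference of 0.23 (standard error 0.10, adjusted p = 0.184).

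Scd1, the other desaturase, was the most variable of the 30 genes among WT mice (SD 0.87, n = 4). It had values of 7.68, 6.37, 8.16 and 8.28 in WT, 7.06, 7.44 and 7.59 in p27-/- and 7.32, 6.92 and 7.48 in compound mutant mice. WT replicate 2 was the lowest of all 10 mice and the other 3 WT mice were the highest. The differences of -0.26 in p27-/- and -0.38 in compound mutants (standard error 0.34 each, adjusted p = 0.682 and 0.599) became -0.68 (adjusted p = 0.0406) and -0.80 (adjusted p = 0.0344) without that mouse. With posterior lobe markers as a covariate they were 0.18 and 0.01, so that not even the sign held. Scd1 and Scd2 are similar in sequence and lie next to each other, so reads could have been divided between them by the counting.

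**Figure D3:**
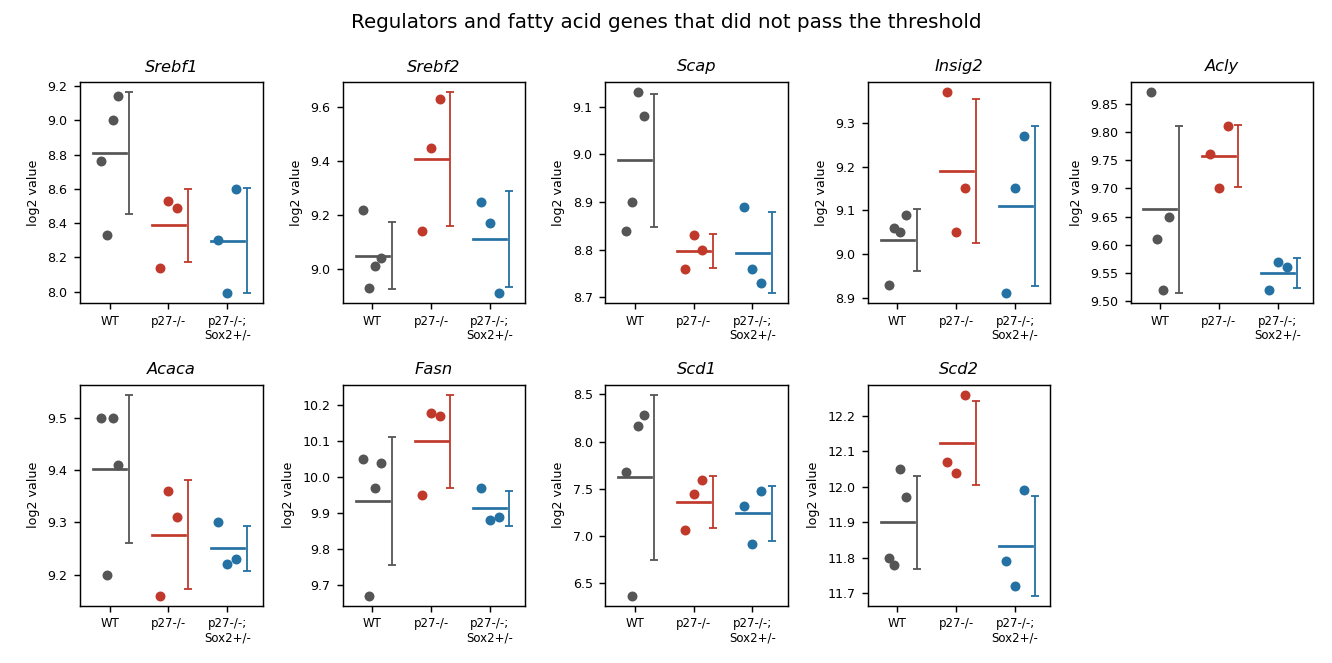
Log2 values of the 4 regulators and 5 fatty acid synthesis genes that did not pass the threshold in either comparison with WT, 1 point per mouse, with the mean as a line and 1 SD to each side as a bar; vertical axes differ and do not start at 0. In the Srebf1 and Scd1 panels 1 WT point, replicate 2, lies among or below the mutant points while the other 3 WT points lie above them.

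Stard4, a cytosolic protein that moves cholesterol between membranes, had the largest change of the 30 genes. Its values were 8.56, 8.55, 7.99 and 8.62 in WT, 9.29, 9.27 and 9.23 in p27-/- and 8.95, 8.80 and 8.89 in compound mutant mice. The 3 genotypes did not overlap, with compound mutants between the others. The difference between p27-/- and WT was 0.84 (standard error 0.13, adjusted p = 0.00285), and it was 0.69 (adjusted p = 0.00112) without WT replicate 3, the low WT mouse. In compound mutants the difference from WT was 0.45 (standard error 0.13, adjusted p = 0.0864).

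In compound mutants compared with WT, 0 of the 30 genes passed the threshold in limma, and 2, Stard4 and Srebf1, had an unadjusted p under 0.05, as did 17.8% of all tested genes. Of all tested genes, 2.71% passed, 0.828% upwards and 1.88% downwards. The median difference over the 30 genes was 0.08, beside 0.01 over all tested genes. The 18 cholesterol synthesis enzymes had a median of 0.13 and ranged from -0.14 for Mvd to 0.22 for Dhcr7, and 16 of them were positive. In only 2 of the 30 genes, Stard4 and Nsdhl, was every compound mutant above every WT mouse, which 7.02% of all tested genes were. Nsdhl had values of 7.45, 7.20, 7.52 and 7.30 in WT, 7.53, 7.59 and 7.55 in compound mutant and 7.61, 7.54 and 7.47 in p27-/- mice, with a difference of 0.19 (standard error 0.10, adjusted p = 0.362). Both Srebf1 and Scd1 were called lower without WT replicate 2, and Srebf1 was called lower with array weights, under which 4.79% of all tested genes were called lower. This comparison used the same 4 WT mice as that of p27-/- mice with WT.

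**Figure D4:**
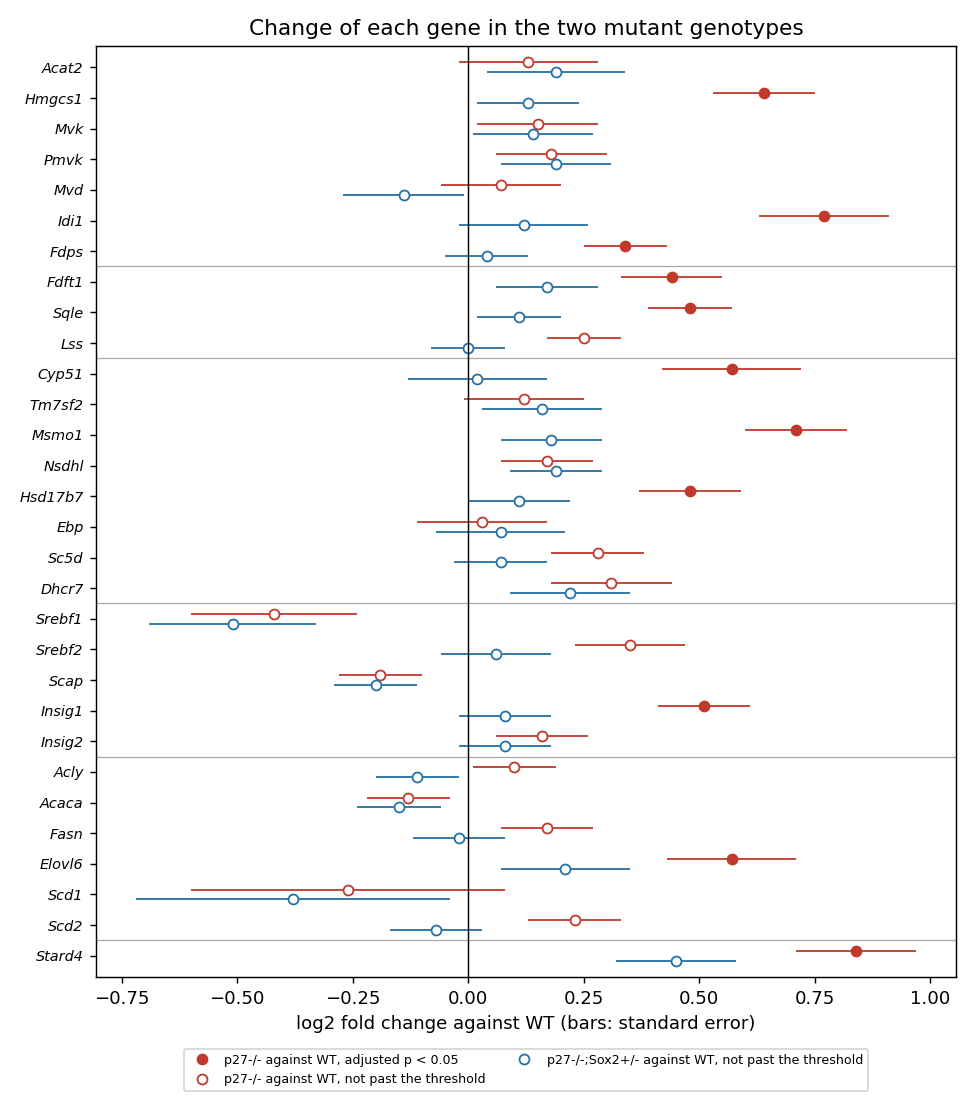
Log2 fold change against WT (horizontal axis) of each of the 30 genes in p27-/- (red) and p27-/-;Sox2+/- mice (blue), with bars of 1 standard error; filled points passed an adjusted p of 0.05 and open points did not. The 11 filled points are all red and lie between 0.34 and 0.84, and both comparisons use the same 4 WT mice.

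The effect of losing 1 copy of Sox2 in mice without p27 was addressed by comparing the mutants directly. No gene of the 30 passed the threshold over all genes in limma, and 15 had an unadjusted p under 0.05, all of them lower in compound mutants. Of all tested genes, 0.145% passed the threshold (0.0811% upwards and 0.0637% downwards), and 6.65% had an unadjusted p under 0.05 (3.46% upwards and 3.19% downwards). The median difference over the 30 genes was -0.21, beside -0.004 over all tested genes, and 25 of the 30 were negative. The smallest adjusted p-values were those of Msmo1 (difference -0.53, standard error 0.12, adjusted p = 0.164), Hmgcs1 (-0.51, standard error 0.12, adjusted p = 0.167) and Idi1 (-0.64, standard error 0.15, adjusted p = 0.167). In 14 of the 30 genes every compound mutant was below every p27-/- mouse, which 7.75% of all tested genes were, and in none was every compound mutant above, which 7.51% were. Acly was such a gene, with 9.76, 9.70 and 9.81 in p27-/- and 9.52, 9.57 and 9.56 in compound mutant mice (difference -0.21, adjusted p = 0.751), as was Scd2, with 12.07, 12.04 and 12.26 against 11.79, 11.72 and 11.99 (difference -0.29, adjusted p = 0.548). For both, the WT range overlapped with that of each mutant group. The p27-/- mice are those of the comparison with WT, so the values of these genes in the 2 comparisons are not independent. With array weights 8 genes, Hmgcs1, Idi1, Sqle, Msmo1, Hsd17b7, Insig1, Scd2 and Stard4, were called lower in compound mutants, beside 0.788% of all tested genes under the same setting, and no setting with equal weights gave a call. Of the genes that rose in p27-/- mice, compound mutant replicate 3 was the highest of its group for Hmgcs1, Idi1, Fdft1, Cyp51, Msmo1 and Insig1. It was the lowest for Fdps, shared the lowest value for Elovl6, and lay between the others for Sqle, Hsd17b7 and Stard4. This mouse also had the highest posterior lobe markers of its group (summed log2 level 12.33, the others 10.67 and 10.69). The part of these markers in its values was not tested.

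Genes around the pathway were read from 4 further lists. Of 26 other lipid synthesis genes linked to SREBP, 1 rose and 1 fell in p27-/- compared with WT, and their median difference was 0.10. Of all tested genes, 3.16% rose and 4.62% fell there, and 2.71% passed in compound mutants compared with WT. Tmem97, a sterol-responsive membrane protein, had values of 6.00, 5.82, 5.67 and 5.70 in WT, 6.17, 6.27 and 6.21 in p27-/- and 5.96, 5.86 and 6.10 in compound mutant mice. Its p27-/- values were above all others, but its call (difference 0.42, standard error 0.12, adjusted p = 0.0466) was lost in 9 of 10 fits with a mouse left out, all but that without WT replicate 1, with adjusted p-values up to 0.148. It was also lost with each of the 3 covariates and in a fit of just the 2 groups compared. Elovl7, an elongase of long fatty acids, was lower in both mutants, with values of 7.84, 8.02, 8.26 and 8.09 in WT, 7.41, 7.30 and 7.52 in p27-/- and 7.31, 7.55 and 7.62 in compound mutant mice. The difference of -0.64 in p27-/- mice (standard error 0.12, adjusted p = 0.00754) passed in every setting. That of -0.56 in compound mutants (standard error 0.12, adjusted p = 0.0268) was lost without WT replicate 3, WT replicate 4, compound mutant replicate 1 or compound mutant replicate 2 (adjusted p up to 0.117). It was also lost with posterior lobe (0.0787) or anterior lobe hormone markers (0.084) as a covariate and in a fit of just the 2 groups (0.0597). None of 10 genes for the processing and degradation of SREBP and of its partners passed in limma in either comparison with WT, with 2 and 1 at an unadjusted p under 0.05. None of the 19 tested genes of fatty acid oxidation passed in limma either, with 3 at an unadjusted p under 0.05 in each of these comparisons. Such an unadjusted p was found for 24.1% of all tested genes in p27-/- and 17.8% in compound mutants compared with WT.

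Of 20 tested genes of sterol efflux, uptake and esterification, 3 fell in p27-/- compared with WT and none rose. Of all tested genes, 4.62% fell and 3.16% rose. Abca1, which exports cholesterol to lipoproteins, had values of 9.26, 8.86, 9.30 and 9.21 in WT, 8.37, 8.70 and 8.38 in p27-/- and 8.97, 8.89 and 9.09 in compound mutant mice. Its p27-/- values were the lowest of all, with a difference of -0.68 (standard error 0.12, adjusted p = 0.00544) that passed in every setting, and the compound mutants overlapped with WT (difference -0.18, adjusted p = 0.476). Abcg1, a further cholesterol exporter, had values of 9.67, 9.69, 9.79 and 9.70 in WT, 9.31, 9.51 and 9.23 in p27-/- and 9.39, 9.35 and 9.20 in compound mutant mice. It was lower in both mutants, by a difference of -0.36 (standard error 0.09, adjusted p = 0.0302) and of -0.40 (standard error 0.09, adjusted p = 0.0323). The first call was lost without WT replicate 3, WT replicate 4, p27-/- replicate 1 or p27-/- replicate 3 (adjusted p up to 0.145), and the second without WT replicate 3, WT replicate 4 or any compound mutant (adjusted p up to 0.124). Both were also lost with posterior lobe markers as a covariate (0.0602 and 0.058), with no filter on low values and in a fit of just the 2 groups compared. Lrp1, a large lipoprotein receptor, had a mean of 10.35 ± 0.25 (SD, n = 4) in WT and values of 9.76, 9.80 and 9.80 in p27-/- and 10.05, 9.89 and 10.05 in compound mutant mice. The p27-/- mice were below all others (difference -0.56, standard error 0.12, adjusted p = 0.0134), a call lost without p27-/- replicate 1 or p27-/- replicate 3 (adjusted p up to 0.0569) and with posterior lobe markers as a covariate (0.0561). In the comparison of the mutants, no gene of the 4 lists passed in limma with equal weights. At an unadjusted p under 0.05 there were 3, 0, 1 and 3, beside 6.65% of all tested genes. With array weights Abca1 was called higher in compound mutants (difference 0.43, adjusted p = 0.0496), as were 147 of all 17268 tested genes. Array weights also added calls for Acaa2 and Decr1 (both lower) in p27-/- compared with WT, and for Acacb and Ppargc1a (both higher) and Lrp1 and Stard5 (both lower) in compound mutants compared with WT. Under these weights, 1030 of the 17268 tested genes were called lower in the first comparison, and 412 higher and 828 lower in the second. Acacb was also called higher in the second with Xist as a covariate, as were 122 of all tested genes.

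**Figure D5:**
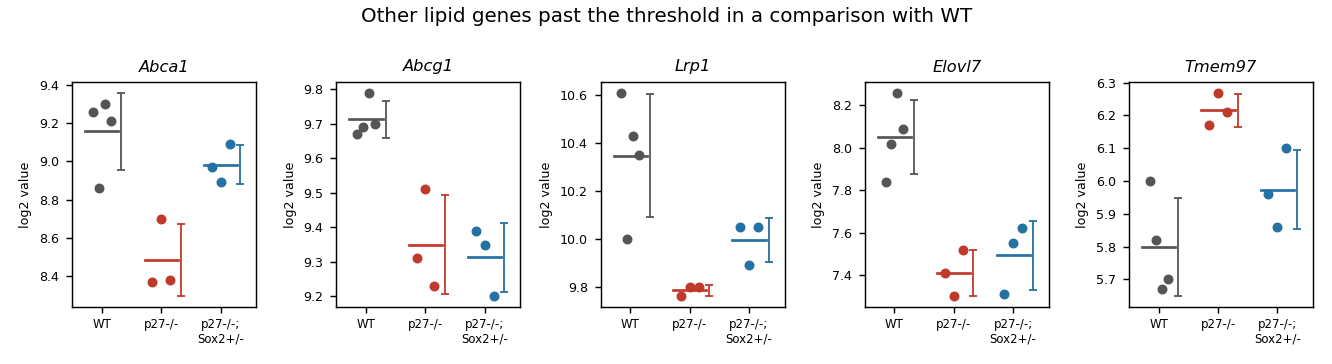
Log2 values of the 5 genes of the 4 further lipid lists that passed the threshold in a comparison with WT, 1 point per mouse, with the mean as a line and 1 SD to each side as a bar; vertical axes differ and do not start at 0. The p27-/- points lie below every WT point for Abca1, Abcg1, Lrp1 and Elovl7 and above every WT point for Tmem97.

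Some markers of other cell types in the dissected lobe differed between genotypes too, and others did not. In bulk tissue, fewer cells of a type and less RNA per cell cannot be told apart. Of 5 melanotroph markers, 2 were higher in p27-/- than in WT mice and 3, Pomc, Pax7 and Tbx19, did not pass. Of all tested genes, 3.16% were called higher in this comparison. Oacyl had values of 14.26, 14.19, 14.30 and 14.18 in WT, 14.77, 15.07 and 15.18 in p27-/- and 14.44, 14.49 and 14.29 in compound mutant mice (difference 0.77 between p27-/- and WT, adjusted p = 0.00161). Pcsk2, which encodes the prohormone convertase PC2, differed by 0.53 (adjusted p = 0.0352). The summed melanotroph level, which follows Pomc, overlapped between genotypes, at 18.18 to 19.12 in WT, 18.74 to 19.15 in p27-/- and 18.52 to 18.69 in compound mutant mice. The part of melanotroph content in the rise of the cholesterol genes was not tested.

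Markers of cells other than melanotrophs were lower or did not pass in p27-/- mice. The call was lower for 1 of 5 pituitary stem cell genes (Cyp2f2), 0 of 6 posterior lobe genes, 2 of 6 tested myelinating glia genes (Pmp22 and Mal), 2 of 8 anterior lobe hormone genes (Lhb and Fshb), 1 of 5 endothelial genes (Kdr), 2 of 5 fibroblast genes (Lum and Pdgfra), and 0 of 7 macrophage, 0 of 3 erythrocyte and 0 of 1 tested adipocyte genes. Of all tested genes, 4.62% were called lower in this comparison. In compound mutants compared with WT, Fshb and Kdr were called lower, beside 1.88% of all tested genes. No marker was called between the mutants with equal weights, beside 0.145% of all tested genes. Summed levels were 12.16 to 12.30 in WT, 11.35 to 11.93 in p27-/- and 11.75 to 11.91 in compound mutant mice for stem cell genes, 10.53 to 12.52, 10.99 to 11.17 and 10.67 to 12.33 for posterior lobe genes, and 9.92 to 11.07, 10.01 to 10.23 and 9.80 to 10.47 for myelinating glia genes. The stem cell sum mainly follows Cyp2f2, at 11.68 to 11.84 in WT, 10.58 to 11.35 in p27-/- and 11.01 to 11.43 in compound mutant mice. Sox9, Aldh1a2 and Fstl1 overlapped with WT in both mutants, as did Sox2 in p27-/- mice. They were 13.89 to 17.77, 12.79 to 16.56 and 13.43 to 14.83 for anterior lobe hormone genes, 8.59 to 8.99, 8.15 to 8.51 and 8.30 to 8.72 for endothelial genes, and 11.21 to 11.65, 10.54 to 11.53 and 10.65 to 11.44 for fibroblast genes. For macrophage genes they were 9.17 to 9.98, 9.32 to 9.45 and 9.04 to 9.37, and for erythrocyte genes 8.12 to 9.42, 7.56 to 10.02 and 7.41 to 9.16. The adipocyte genes Plin1, Cfd, Lep and Retn were under the minimum level in these samples, and the tested adipocyte gene, Fabp4, had 3.72 to 4.19. With posterior lobe markers as a covariate 8 of the 30 genes were called in p27-/- against WT, all higher, beside 1.03% of all tested genes called higher in that fit, and the calls of Fdps, Cyp51 and Elovl6 were lost. With anterior lobe hormone markers 10 were called, all higher, beside 3.49% of all tested genes, and the call of Fdps was lost.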

How the data were processed

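Bulk RNA of the dissected IL of 10 mice was sequenced on a HiSeq4000 after Ovation cDNA synthesis. The authors aligned reads with STAR 2.5.2a (per the submitters' processing notes) to the Ensembl transcriptome of mouse GRCm38, counted them per gene with RSEM without using strand, and normalized the counts with DESeq2 1.18.1. The deposited table holds log2 values for 29527 genes, with a lowest value of -1.89 and column means of 4.35 to 4.37, and the transformation is not given in the sources used here. Low values look shrunken. Without counts the depth per sample is unknown, no interval is given, and precision rests on how many mice there were.

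Groups follow the genotype label, with 1 library per mouse. The 17268 genes whose mean reached 3.32 on the log2 scale, a linear value of 10, were fitted with limma 3.58.1 in R 4.3.3 (1 fit of the 3 genotypes, mean-variance trend, 3 contrasts, Benjamini-Hochberg adjustment over all tested genes, threshold 0.05), tested on simulated data first. With 200 genes changed there in p27-/- against WT, 36.5% of log2 changes of 0.5 and 88.5% of changes of 1 were recovered. Of the calls, 6.4% and 3.8% were false. Members were matched by symbol (28), older symbol (1, Msmo1) and, for Hmgcs1, the ID and name paired in the study's gene lists. Summed marker levels are log2 of the sum of the linear values. Named are all members, genes of the 4 other lipid lists past the threshold, targeted genes and markers by list. The members and lists were chosen with earlier results of these data known. Alternatives were no filter, a mean of at least 50, array weights, a fit without the trend, a fit of just 2 groups, a replicate block, quantile normalization, median centring, 3 covariates (Xist, posterior lobe and anterior lobe hormone markers) and each mouse left out. Tables were made with Python 3.11.15, numpy 2.4.6 and pandas 2.3.3 and figures with matplotlib 3.10.9.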

Additional observations from a re-analysis of the deposited data

Results flagged for a closer look

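Among the 30 genes, 3 had a WT mouse that stood apart from the other 3 by Dixon's test (gap to the nearest mouse over the whole range, against its critical value for 4 samples), and chance alone flags about 1 in 20 groups. Lss was lowest in WT replicate 4, at 8.55 with the others at 8.60 to 8.61 (ratio 0.888), a gap that is small on the log2 scale. Without that mouse its difference between p27-/- and WT was 0.24 (limma, adjusted p = 0.138). Cyp51 was lowest in WT replicate 3, at 8.23 with the others at 8.61 to 8.64 (ratio 0.926), and without that mouse its difference was 0.47 (limma, adjusted p = 0.0837), no longer past the threshold. Stard4 was lowest in the same mouse, at 7.99 with the others at 8.55 to 8.62 (ratio 0.901), and without it the difference was 0.69 (limma, adjusted p = 0.00112).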

How the results depend on the processing

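In p27-/- against WT, 11 of the 30 genes were called, and 7 with no filter on low values (without Fdps, Fdft1, Cyp51 and Elovl6, with 1.08% of all genes called higher), 6 with the replicate number as a block (202 of all tested genes called higher), 13 with array weights and 7 to 12 with a mouse left out. The count of 12, without WT replicate 2, included Srebf1 and Scd1 as lower. Over the fits with a mouse left out, 145 to 725 of all tested genes were called higher. The medians of the differences ranged from 0.22 to 0.27 over the fits with a mouse left out. In compound mutants against WT, 0 were called, 1 with array weights and 0 to 2 with a mouse left out, with medians of 0.04 to 0.11. These calls were of Srebf1 and Scd1, all lower. Between the mutants 0 were called, 8 with array weights (median -0.27, with 0.788% of all tested genes called lower) and 0 to 0 with a mouse left out (medians -0.26 to -0.17). Scd1 changed sign with posterior lobe markers as a covariate, to 0.18 in p27-/- and 0.01 in compound mutants against WT, and the cause was not tested. No pairing of the mice by replicate number was seen. Correlations of the deviations of the 9 same-numbered pairs ran from -0.24 to 0.18, and 1 of 10 samples correlated best with its own number. WT replicate 4 had no same-numbered partner and so could not. With so few mice this cannot exclude pairing. The block lost Fdps, Fdft1, Cyp51, Hsd17b7 and Elovl6, and among other lipid genes Tmem97, Abcg1 in both mutants and Elovl7 in compound mutants. The sexes are not equally split among genotypes, and with Xist as a covariate the same 11 genes were called. Groups of 3 and 4 mice, unknown depth and values that look shrunken at low levels limit what can be seen, and a gene that did not pass may still differ.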
